A study of Arabidopsis thaliana with 12 samples.

Results

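The 9 genes described here encode the enzymes that set the levels of raffinose and proline, small solutes that plant cells accumulate under drought, cold and salt. They were taken by locus identifier and comprise the galactinol synthases GolS1 to GolS4, the raffinose synthase RS5, the proline synthesis enzymes P5CS1 and P5CS2, and the proline dehydrogenases ProDH1 and ProDH2. These were 9 of the 22028 genes listed in at least 1 of 6 RNA libraries of Arabidopsis thaliana, and all 9 passed the filter on low values, as did 21038 genes in all.

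Galactinol synthase joins myo-inositol and a galactose unit from UDP-galactose to make galactinol, and raffinose synthase moves that galactose onto sucrose. Proline is made from glutamate through the enzyme P5CS, the controlling step, and is broken down in mitochondria, where proline dehydrogenase (ProDH) catalyses the opening oxidation. In Arabidopsis leaves under water stress, P5CS1 RNA usually rises while ProDH1 RNA falls, and GolS1, GolS2 and GolS3 are known as stress-responsive galactinol synthases.

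Estradiol at 10 uM was given to whole seedlings 10 days old, which were frozen 5 hours later. The induced group, genotype GFP:BRC1ind, carries an estradiol-inducible GFP fusion of BRC1 (BRANCHED1), a TCP transcription factor that holds axillary buds dormant. The other group, brc1-2, is a BRC1 knock-out given the same estradiol treatment. There were 3 RNA libraries per group, and anti-GFP ChIP-seq of the induced line gave a list of 4227 binding peaks. The comparison asks how these genes differ when BRC1 is present in excess and when it is missing. Genotype and transgene induction differ together between the groups and cannot be told apart, and the samples hold no GFP:BRC1ind seedlings left without estradiol. Neither the promoter of the transgene, nor the number of lines, nor the pooling of seedlings per library is given in the sources used here. Nothing in the labels says that libraries of a group came from separate cultures, so p-values measure only the spread between these libraries, which may be technical.

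BRC1 (AT3G18550) had a mean FPKM of 3472 ± 135 in the induced libraries and 1.73 ± 0.432 in brc1-2 (SD, n = 3 each). Endogenous and transgene reads cannot be told apart in these values. FPKM scales fragments by length and by library size. Here the length is that of each assembled piece of a transcript, and for low genes it differed between libraries. For GolS3 the piece was 371 bp long in induced library 2 and 1197 bp in induced library 3. Levels of such genes can be compared only roughly, between genes as well as between libraries. Derived fragment totals ran from 33176994 to 53385759 per library. Markers of the seedling's parts were summed per library. The sum of 3 shoot genes ran from 21640 to 25810 FPKM in the induced line and from 19790 to 28440 in brc1-2. That of 3 root genes ran from 1315 to 1640 and from 1538 to 1936. Nearly all of the root sum was PYK10, at 1444 ± 170 FPKM in the induced line and 1670 ± 215 in brc1-2 (SD, n = 3 each; limma adjusted p = 0.402). The root sum therefore says little of the other root markers. The seed storage genes CRU3 and SESA3 were not listed in any library, and CRA1 and OLEO1 were listed only in brc1-2 libraries 1 and 2, at no more than 5.17 FPKM. The root-hair genes EXPA7 and EXPA18, 2 of the 3 root markers, were lower in the induced line, at 2.5 ± 0.638 against 17.3 ± 6.44 FPKM and 1.59 ± 0.251 against 13.7 ± 5.33 FPKM (SD, n = 3 each; limma adjusted p = 0.00433 and 0.00343). Their part in the results below was not tested. Whole seedlings were sampled, so fewer cells of a type and less RNA per cell cannot be told apart.

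Of the 9 osmolyte genes, GolS1 rose in the induced line, RS5 and ProDH1 fell, and 6 were not past the threshold, an adjusted p of 0.05 in limma. Of all 21038 tested genes 16.2% passed it, 7.37% as higher and 8.86% as lower. The groups did not overlap for GolS1, RS5 and ProDH1, and overlapped for the other 6. Across all tested genes they did not overlap in 38.9%. The median log2 fold change of the 9 genes was -0.05, and that of all tested genes 0.04.

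**Figure D1:**
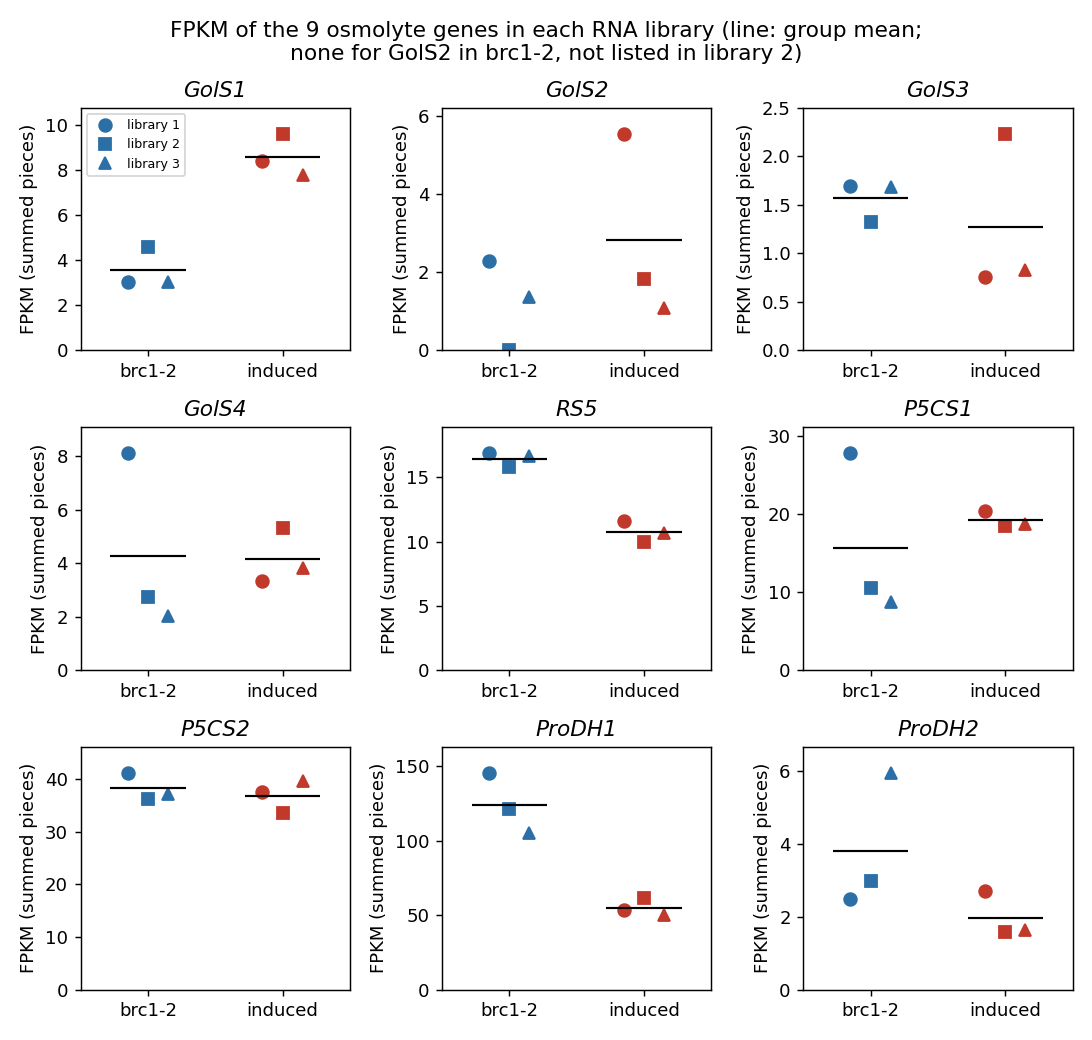
FPKM (vertical axis, linear, from 0) of each osmolyte gene in the 3 brc1-2 libraries (blue) and the 3 induced libraries (red). Library numbers are shown by symbol and group means by lines. No line is drawn for GolS2 in brc1-2, as it was not listed in every library there. The induced libraries sit above brc1-2 for GolS1 and below it for RS5 and ProDH1, and brc1-2 library 1 stands above the other brc1-2 libraries for P5CS1 and GolS4.

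GolS1 (AT2G47180; chromosome 2, 19368798 to 19370441, TAIR10) encodes a galactinol synthase, the entry step to raffinose. Its FPKM was 8.41, 9.64 and 7.8 in induced libraries 1, 2 and 3, against 3.06, 4.58 and 3.02 in brc1-2 libraries 1, 2 and 3. Each induced library was above each brc1-2 library. Mean FPKM was 8.62 ± 0.936 in the induced line and 3.55 ± 0.888 in brc1-2 (SD, n = 3 each), with a ratio of 2.42, resting on 342 to 472 derived fragments per induced library and 147 to 180 per brc1-2 library. The log2 fold change of FPKM + 1 was 1.09 (SE 0.16, 95% interval 0.69 to 1.49, limma adjusted p = 0.00901). For GolS1, RS5 and ProDH1 alike, exact permutation of the FPKM values (two-sided) gave p = 0.1, the smallest p that 3 libraries against 3 can give.

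GolS2, GolS3 and GolS4 were low in most libraries and were not past the threshold. GolS2 (AT1G56600; chromosome 1, 21207537 to 21209596) stood at 5.55, 1.83 and 1.09 FPKM across the induced libraries. Its brc1-2 values were 2.29, 0 and 1.36 FPKM. The 0 of brc1-2 library 2 means that the gene was not listed there, and the smallest listed piece in any library held 9.6 derived fragments. The high value of induced library 1 is the sum of 2 assembled pieces of one transcript, at 2.38 and 3.18 FPKM, from 57 fragments in all. Weighted by length, these pieces gave 2.65, which leaves the groups overlapping as before. The log2 fold change of GolS2 was 0.77 with a 95% interval from -0.71 to 2.26 (limma adjusted p = 0.439), and this depth leaves the direction unresolved.

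GolS3 (AT1G09350; chromosome 1, 3019819 to 3021441), known from other work as the cold-induced member, had 0.753, 2.24 and 0.824 FPKM across the induced libraries, against 1.7, 1.32 and 1.68 FPKM in brc1-2. The groups overlapped. Induced library 2 was the highest of the 6 and rested on 13 fragments, with confidence bounds in the deposited table of 0.995 to 3.47. The log2 fold change of GolS3 was -0.23 (95% interval -0.98 to 0.52, limma adjusted p = 0.651).

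GolS4 (AT1G60470; chromosome 1, 22278975 to 22280586) had 3.34, 5.3 and 3.8 FPKM with BRC1 induced, against 8.11, 2.72 and 2.0 FPKM in brc1-2. The induced libraries all lay inside the brc1-2 range, which was set by library 1 at its top. GolS4 had a log2 fold change of 0.12 (SE 0.43, limma adjusted p = 0.875), and of 0.6 without brc1-2 library 1 (limma adjusted p = 0.162). Leaving out brc1-2 library 3 gave -0.2, so the sign depends on single libraries.

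Added over GolS1 to GolS4, the level was 18.1, 19.0 and 13.5 FPKM with BRC1 induced, against 15.2, 8.62 and 8.06 FPKM in brc1-2, and the groups overlapped. GolS1 made up 46.6%, 50.7% and 57.7% of that sum in the induced libraries. With the GolS2 pieces of induced library 1 weighted by length, the sum there was 15.15 FPKM and the GolS1 share 55.5%. In brc1-2 the GolS1 share was 20.2%, 53.1% and 37.5%, and in library 1 GolS4 was the most abundant of the family with 53.5%. How fragments shared between these similar genes were assigned is not given in the sources used here, which makes the split among low members uncertain.

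Raffinose synthase fell. RS5 (AT5G40390; chromosome 5, 16161515 to 16165357), which catalyses the step from galactinol to raffinose and is known as the main stress-responsive raffinose synthase of leaves, had 11.6, 9.94 and 10.7 FPKM in the induced libraries. In brc1-2 libraries it had 16.9, 15.8 and 16.7 FPKM. The groups were tight and separate, with means of 10.8 ± 0.853 and 16.4 ± 0.575 (SD, n = 3 each) from at least 856 fragments per library. RS5 fell by 0.57 on the log2 scale (SE 0.08, 95% interval -0.76 to -0.38, limma adjusted p = 0.00669), and brc1-2 was 1.53 times the induced level. GolS1 and RS5, which act one after the other, thus moved in opposite directions.

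Neither proline synthesis gene passed the threshold. P5CS1 (AT2G39800; chromosome 2, 16598072 to 16603319), the stress-induced P5CS, had 20.4, 18.5 and 18.8 FPKM with BRC1 induced. The brc1-2 libraries had 27.8, 10.5 and 8.78 FPKM. Induced values were close together and fell between brc1-2 library 1 and the other brc1-2 libraries. These differences within brc1-2 were far larger than counting error: the confidence bounds of the tables were 26.9 to 28.8 for library 1 and 8.2 to 9.36 for library 3. The log2 fold change of P5CS1 was 0.45 (SE 0.4, 95% interval -0.53 to 1.44, limma adjusted p = 0.494). Without brc1-2 library 1 it was 0.93 and past the threshold (limma adjusted p = 0.00923), so this library alone decides the call. It was also the library with the highest GolS4.

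P5CS2 (AT3G55610; chromosome 3, 20624020 to 20629093), known for its role in dividing tissue and embryos, had 37.4, 33.5 and 39.5 FPKM with BRC1 induced, against 41.1, 36.3 and 37.1 FPKM in brc1-2. All 6 values lay within a narrow range and the groups overlapped. The log2 fold change was -0.05 with a 95% interval from -0.26 to 0.16 (limma adjusted p = 0.725), the narrowest interval among the 6 osmolyte genes not past the threshold. P5CS1 made up 35.3%, 35.6% and 32.2% of the summed P5CS FPKM with BRC1 induced, against 40.4%, 22.4% and 19.1% in brc1-2.

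On the breakdown side, ProDH1 fell and ProDH2 was not past the threshold. ProDH1 (AT3G30775; chromosome 3, 12448636 to 12451248; POX1 in the tables), the main proline dehydrogenase, had 53.6, 61.4 and 50.0 FPKM in the induced libraries. In brc1-2 it had 146, 121 and 106 FPKM. Even the lowest brc1-2 library was far above the highest induced one. Mean FPKM was 55.0 ± 5.85 in the induced line and 124 ± 20.2 in brc1-2 (SD, n = 3 each), 2.26 times as high in brc1-2, from at least 3166 fragments per library. ProDH1 fell by 1.15 on the log2 scale (SE 0.14, 95% interval -1.49 to -0.81, limma adjusted p = 0.0049), the lowest adjusted p of the 9 osmolyte genes.

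ProDH2 (AT5G38710; chromosome 5, 15501245 to 15504109; POX2 in the tables), a second dehydrogenase known from vascular and ageing tissue, had 2.71, 1.58 and 1.65 FPKM with BRC1 induced, against 2.48, 2.97 and 5.96 FPKM in brc1-2. Overlap between the groups came from induced library 1, where 2 pieces on 23 fragments were added. The log2 fold change was -0.64 (95% interval -1.4 to 0.12, limma adjusted p = 0.226), and -0.87 with pieces weighted by length (limma adjusted p = 0.0754). ProDH1 made up at least 94.7% of the summed ProDH FPKM in each of the 6 libraries.

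**Figure D2:**
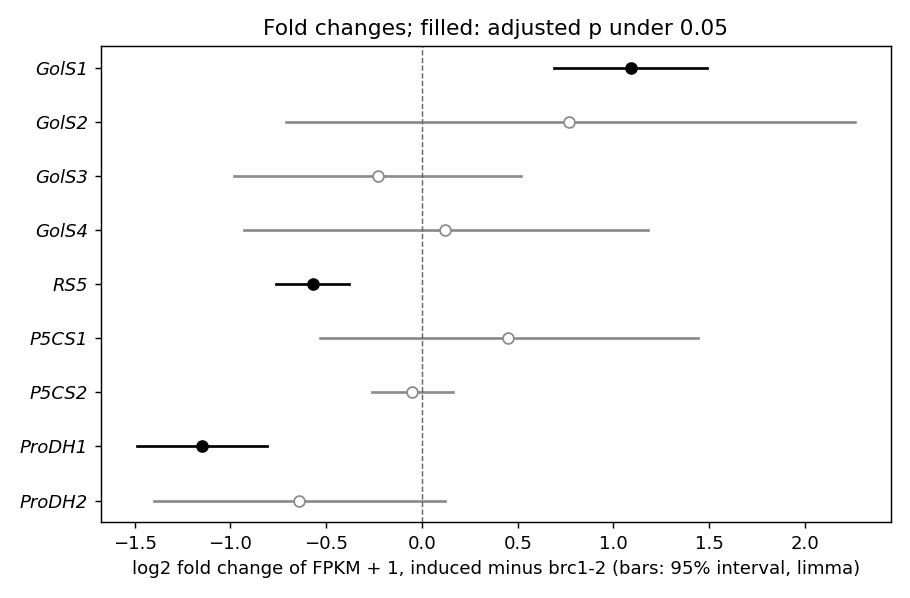
Log2 fold change of FPKM + 1 (horizontal axis, induced minus brc1-2) of each osmolyte gene from limma, with 95% intervals as bars and filled points for an adjusted p under 0.05. GolS1 lies at 1.09, RS5 at -0.57 and ProDH1 at -1.15, and the intervals of the other 6 genes span 0.

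Ordered by level, the induced libraries gave ProDH1, P5CS2, P5CS1, RS5, GolS1 and GolS4, each without overlap with its neighbour, followed by GolS2, ProDH2 and GolS3, which overlapped one another, as GolS2 did GolS4. Weighted by length, the GolS2 pieces of induced library 1 gave 2.65 FPKM, below the lowest induced GolS4 value of 3.34. GolS2 and GolS4 then did not overlap. In brc1-2 the order began with ProDH1 and P5CS2, again without overlap. RS5 and P5CS1 came next and overlapped each other, and the remaining 5 genes, GolS4, ProDH2, GolS1, GolS3 and GolS2, formed a chain in which GolS3 lay below GolS4, GolS1 and ProDH2. ProDH1 stood at the 91.6th to 93.8th percentile of listed genes in brc1-2 and at the 82.4th to 84.7th in the induced line. GolS1 moved from the 13.7th to 18.6th percentile in brc1-2 to the 33.7th to 38.5th.

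**Figure D3:**
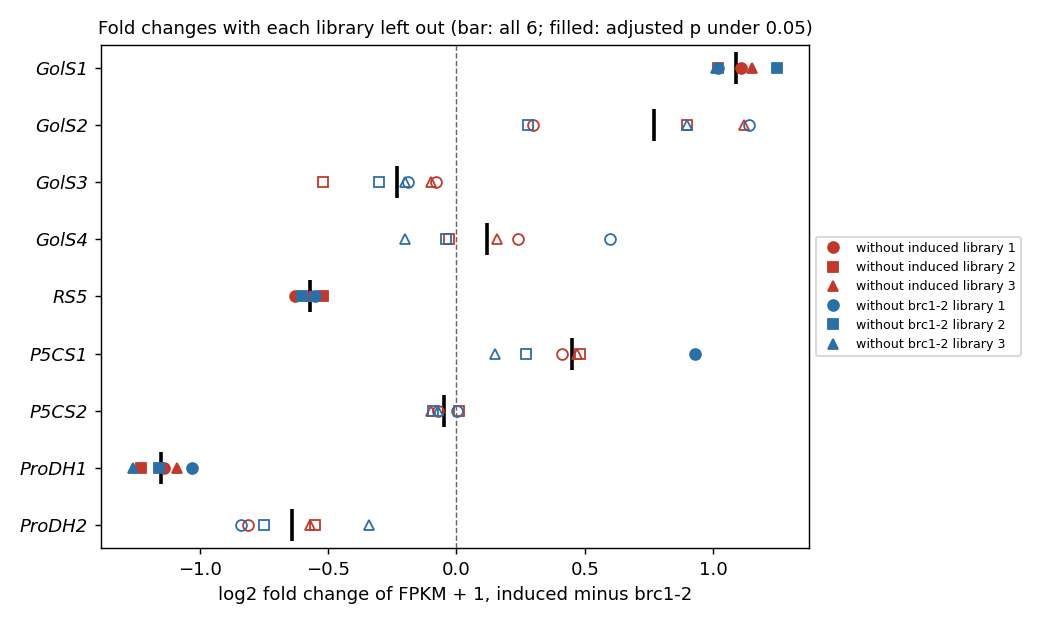
Log2 fold change of FPKM + 1 (horizontal axis, induced minus brc1-2) of each osmolyte gene with all 6 libraries (black bar) and with each library left out in turn (symbols, red for an induced and blue for a brc1-2 library, filled for an adjusted p under 0.05). GolS1, RS5 and ProDH1 stay past the threshold in each of these fits, and P5CS1 passes it only without brc1-2 library 1.

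Binding was examined next, to see which of these loci lay near BRC1 peaks. A peak midpoint fell in the locus extended by 1000 bp for 4 of the 9 genes, GolS2, GolS3, P5CS1 and ProDH1, and for 16.3% of the tested genes with a position. With 3000 bp the count was 5 of 9, with RS5 added, against 27.7% of tested genes. The peak list gives positions with no height or replicate values, so the error of these counts could not be estimated. The tables give no strand, so promoter and 3' sides could not be separated.

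The peak at GolS3 (chromosome 1, 3019400 to 3019777) ended 41 bp before the low-coordinate end of the locus, the nearest of the peaks lying wholly outside a locus. That at GolS2 (chromosome 1, 21206861 to 21207437) ended 99 bp before the locus, and was the widest of the peaks at these 4 genes, at 577 bp. At P5CS1 a peak (chromosome 2, 16603028 to 16603351) straddled the high-coordinate end of the locus with 292 of its 324 bp inside. Further peaks lay 1627 and 3450 bp beyond that end, the latter closer to AT2G39805 at 2849 bp. The ProDH1 peak (chromosome 3, 12451629 to 12452028) began 380 bp beyond the high-coordinate end. For GolS2, GolS3, ProDH1 and the peak overlapping P5CS1, the osmolyte gene was the nearest annotated locus, and the next one was at least 1165 bp from the peak.

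For RS5 the nearest peak (chromosome 5, 16158816 to 16159294) lay 2220 bp away, closer to the microRNA locus MIR866A at 867 bp. For GolS1 it lay 3808 bp away and closer to MYB2 (AT2G47190), which was not among the tested genes. GolS4, P5CS2 and ProDH2 had no peak within 10 kb, with gaps of 37681, 12495 and 91357 bp. Of the 4 genes with a peak within 1000 bp, ProDH1 fell and GolS2, GolS3 and P5CS1 were not past the threshold. The intervals of GolS2 and GolS3 span 0 on few fragments, and the P5CS1 call depended on brc1-2 library 1. GolS1 rose with no peak within 3000 bp, and RS5 fell with a peak within 3000 bp but not within 1000 bp. GolS4, P5CS2 and ProDH2 had neither a peak within 3000 bp nor a call. A link between peaks and RNA changes was not tested.

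**Figure D4:**
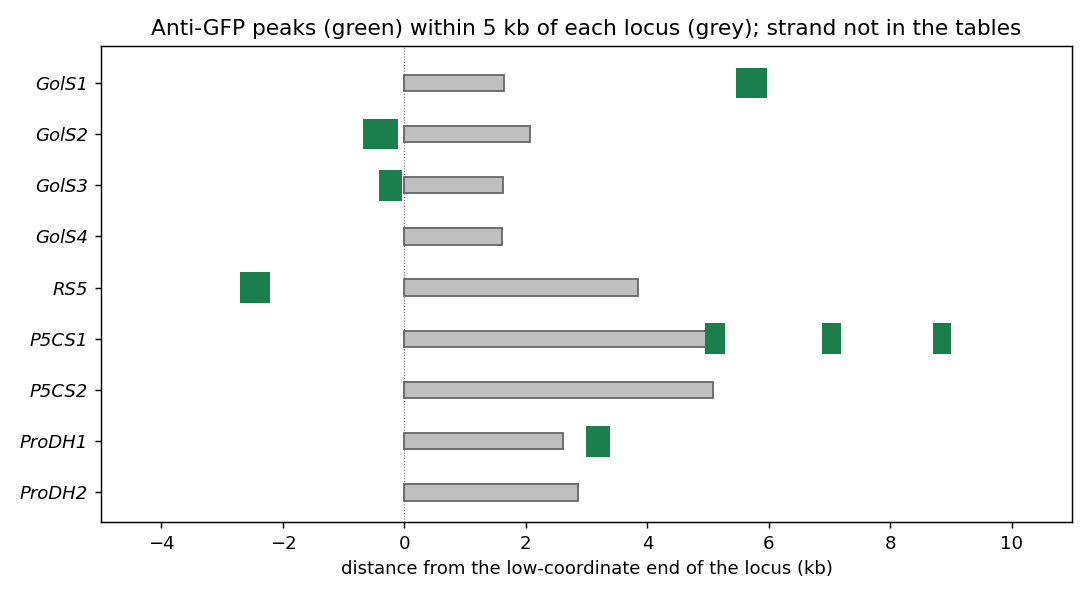
Anti-GFP peaks (green) within 5 kb of each osmolyte locus (grey), drawn to scale in kb from the low-coordinate end of the locus on the horizontal axis, without strand. Peaks lie 99 bp from GolS2 and 41 bp from GolS3, overlap the far end of P5CS1 and lie 380 bp beyond ProDH1. GolS4, P5CS2 and ProDH2 have none.

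The rest of these pathways was followed in a wider list of 40 genes, of which 36 passed the filter on low values. The genes were chosen with earlier results of these data known, so the counts here and by family below may reflect that choice. With BRC1 induced, 3 of them rose and 14 fell, a total of 17, beside 7.37% and 8.86% of all tested genes. The other 19 were not past the threshold. Among the 14, STS was listed in brc1-2 libraries alone and passed the filter only through them. Without it 13 of 35 fell. For the 36 genes the median log2 fold change was -0.13, beside 0.04 for all tested genes. The count of 17 changed with the libraries used, falling to 5, 6 and 9 when induced library 1, 2 or 3 was left out. It fell to 9 when brc1-2 library 2 was left out. The number over all tested genes fell too, from 3413 to 1609, 1738, 2006 and 2134 in the same order. Peaks lay within 1000 bp of 5 of the 35 genes with an annotated position, beside 16.3% of tested genes with one, so this share is near the background.

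Among 7 genes for other raffinose synthase-like proteins and α-galactosidases, which hydrolyse raffinose and related sugars, 5 fell and none rose, or 4 of 6 without STS. Of all tested genes 8.86% were lower. DIN10 (AT5G20250; RFS6 in the tables), a dark- and sugar-starvation-inducible gene of the raffinose synthase family, fell from 228 ± 26.2 to 85.7 ± 8.56 FPKM (SD, n = 3 each; log2 fold change -1.4, limma adjusted p = 0.0017) and had a peak within 1000 bp. AGAL2 (AT5G08370), an α-galactosidase, fell from 17.6 ± 1.41 to 12.7 ± 0.677 FPKM (SD, n = 3 each; log2 fold change -0.44, limma adjusted p = 0.0177). Leaving out induced library 1, 2 or 3 cost AGAL2 its call, with limma adjusted p-values of 0.0552, 0.0665 and 0.0592 at log2 fold changes of -0.47, -0.4 and -0.46. STS (AT4G01970; RFS4 in the tables), a stachyose synthase, had 2.13, 1.46 and 2.43 FPKM in brc1-2, from 51, 124 and 262 fragments, and was not listed in the induced libraries. It passed the filter only through the group where it was high, so its adjusted p is not given as support, and it could not be fitted with any brc1-2 library left out. Its call was lost by voom on fragments, with the replicate block and without induced library 1. Of the remaining galactinol synthases, GolS5, GolS6 and GolS10 were listed in no library, and GolS7 in brc1-2 library 3 alone, on 12 fragments.

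In the supply of myo-inositol and UDP-galactose, the substrates of galactinol synthase, 1 of 9 genes rose and 2 fell. Over all tested genes 7.37% were higher and 8.86% lower. MIPS2 (AT2G22240), a myo-inositol-phosphate synthase, had 23.9, 23.6 and 21.4 FPKM with BRC1 induced, against 3.5, 2.85 and 2.42 FPKM in brc1-2. The groups lay far apart. This was a 7.85-fold rise of the mean (log2 fold change 2.62, SE 0.12, limma adjusted p = 0.000319), the largest among the osmolyte genes and the wider list, and a peak lay within 1000 bp. Its paralogue MIPS1 (AT4G39800), also with a peak within 1000 bp, fell from 43.6 ± 6.13 to 30.0 ± 1.49 FPKM (SD, n = 3 each; limma adjusted p = 0.0266). The MIPS1 call was lost without induced library 1, 2 or 3 and without brc1-2 library 2, with log2 fold changes of -0.55 to -0.48. MIPS3 was not past the threshold, at 24.9 ± 2.55 against 26.4 ± 2.53 FPKM in brc1-2 (limma adjusted p = 0.645).

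Of 5 other genes of proline and ornithine metabolism, 1 passed the threshold, beside 16.2% of all tested genes, so this count is near the background. ARGAH2 (AT4G08870), an arginase that releases ornithine, rose from 22.1 ± 2.35 to 38.8 ± 4.76 FPKM (log2 fold change 0.78, limma adjusted p = 0.00982). P5CR, the closing enzyme of proline synthesis, had 129 ± 11.8 FPKM against 123 ± 19.2 in brc1-2, and P5CDH, which acts after ProDH in breakdown, 41.4 ± 2.97 against 44.3 ± 1.82 (SD, n = 3 each; limma adjusted p = 0.733 and 0.429). The fall of ProDH1 was thus not accompanied by a call on P5CDH, though the difference between the genes was not tested.

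Among 6 carriers that move proline and other amino acids, 3 fell and none rose, beside 8.86% lower and 7.37% higher over all tested genes. LHT1 (AT5G40780), an uptake carrier of root and leaf cells, had 12.8, 14.96 and 22.2 FPKM with BRC1 induced, against 26.1, 39.7 and 46.1 FPKM in brc1-2 (log2 fold change -1.11, limma adjusted p = 0.0417). ProT2 (AT3G55740), a proline transporter, fell from 15.7 ± 0.967 to 9.96 ± 1.48 FPKM (limma adjusted p = 0.0173), and AAP1 (AT1G58360) from 24.0 ± 5.62 to 15.1 ± 0.584 FPKM (limma adjusted p = 0.0486). Each of these calls was lost without induced library 1 and without induced library 2, with log2 fold changes between -1.06 and -0.54 in those fits. The LHT1 call was also lost without brc1-2 library 2 or 3, and the AAP1 call without induced library 3 or brc1-2 library 2 or 3. LHT1 also lost its call with median-ratio scaling and without the trend (limma adjusted p = 0.0509 and 0.0537). AAP1 did so with a pseudocount of 5, with no filter and without the trend (limma adjusted p = 0.0537, 0.0519 and 0.063).

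Group C and S1 bZIP factors, some of which bind the ProDH1 promoter as heterodimers, gave 1 rise and 4 falls among 9 genes, beside 16.2% of all tested genes past the threshold in either direction. bZIP11 (AT4G34590), a sucrose-regulated factor known to raise ProDH2 RNA, rose to 56.1 ± 1.88 FPKM from 24.1 ± 3.51 in brc1-2 (SD, n = 3 each; log2 fold change 1.2, limma adjusted p = 0.00213). The group C factor bZIP63 (AT5G28770), known for its role under low energy, fell from 48.1 ± 4.23 to 24.3 ± 1.1 FPKM (log2 fold change -0.96, limma adjusted p = 0.00183). bZIP1 (AT5G49450) fell from 11.3 ± 0.85 to 8.08 ± 1.02 FPKM (limma adjusted p = 0.0458), a call lost in each of the 6 fits that left out a library, with log2 fold changes of -0.51 to -0.35. The other falls were those of bZIP53 (AT3G62420) and bZIP2 (AT2G18160), with log2 fold changes of -0.33 and -0.4 (limma adjusted p = 0.0368 and 0.0385). bZIP11 thus rose where ProDH1 fell and ProDH2 was not past the threshold, and bZIP63, bZIP1, bZIP53 and bZIP2 fell with ProDH1. A link between these factors and the ProDH genes was not tested. No annotated position was listed for bZIP11, bZIP1 or bZIP53, so their peaks were not counted.

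**Figure D5:**
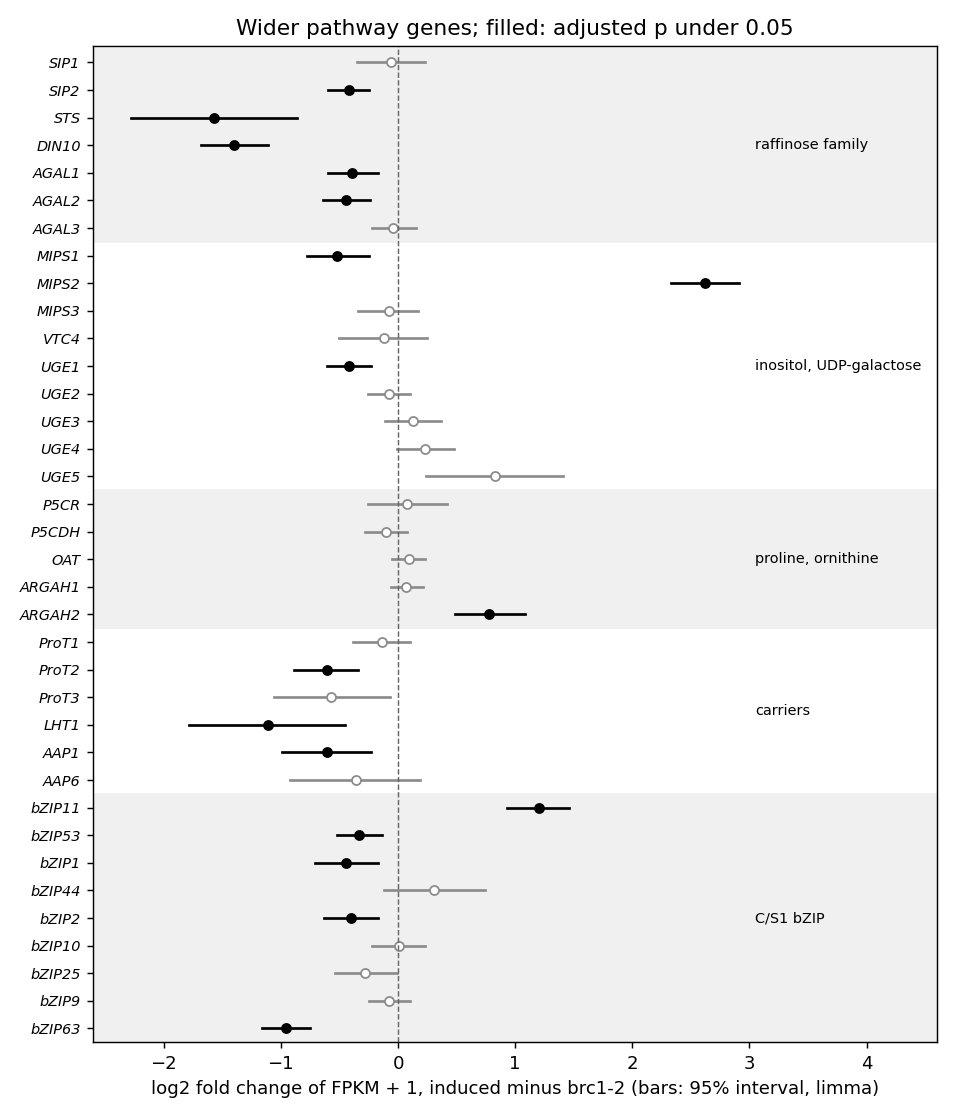
Log2 fold change of FPKM + 1 (horizontal axis, induced minus brc1-2) of the 36 tested genes of the wider list from limma, with 95% intervals as bars and filled points for an adjusted p under 0.05, grouped by role. MIPS2 at 2.62 and bZIP11 at 1.2 stand farthest to the right, and STS at -1.57 and DIN10 at -1.4 farthest to the left. STS is at 0 in the induced libraries, so its place is set by the pseudocount of 1 (-4.37 with 0.1, -0.48 with 5).

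The genes outside these lists whose pattern over the 6 libraries was most like that of ProDH1, the called osmolyte gene with the largest log2 fold change of FPKM + 1, were AT2G28710, AT3G59370 and HSP15.4 (AT4G21870). With a pseudocount of 0.1 GolS1 changed more than ProDH1, by 1.28 against -1.17, and with voom by 1.37 against -1.14. GolS1 also did so without induced library 3 (1.15 against -1.09) and without brc1-2 library 2 (1.25 against -1.16). The choice of ProDH1 thus holds for FPKM + 1 with all 6 libraries. Likeness was the mean absolute difference of log2(FPKM + 1), each gene centred on its own mean, and came to 0.035, 0.065 and 0.079. HSP15.4, a small heat shock protein gene, had 32.3, 34.6 and 33.6 FPKM with BRC1 induced, against 100.2, 75.8 and 64.2 FPKM in brc1-2, with library 1 the highest of brc1-2 as for ProDH1. AT2G28710 was the nearest in pattern but far lower in level, at 1.99 ± 0.29 against 5.59 ± 1.01 FPKM (SD, n = 3 each).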

How the data were processed

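Poly(A) RNA of 6 libraries was quantified by the authors as FPKM with confidence bounds, in tables whose column layout is that of Cufflinks per the file headers. TopHat, Bowtie, Cuffdiff, Bowtie2, MACS2 and the build TAIR10 are named in the submitters' processing notes, without versions. The deposited peak list is, by its name, the intersection of peaks of ChIP libraries 1 and 2. The remaining ChIP library and the Inputs were not used here. Values lie on pieces assembled on contigs named by transcript, and the 33147 annotated rows at chromosome positions, all at 0, gave loci only.

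FPKM was added over the pieces of a gene, with 0 for a gene not listed. Fragment numbers were computed from how wide the deposited bounds are, and these bounds cover counting error only. Genes with FPKM of at least 1 in at least 3 libraries were fitted as log2(FPKM + 1) in limma 3.58.1 (R 4.3.3; eBayes with trend, no covariates), with Benjamini-Hochberg adjustment over all tested genes. Such fold changes understate the change of low genes. The fit was tested on simulated libraries. Peak and locus starts were counted from 1. Python 3.11.15 was used for the rest, and RefSeq gene symbols (TAIR10.1) matched all 59 listed genes.

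The osmolyte genes and wider lists were chosen with earlier results of these data known. Named genes were the 9 osmolyte genes, BRC1, up to 12 called genes of the wider lists by size of change, and the 3 most like ProDH1. P5CR, P5CDH, MIPS3, bZIP53, bZIP2 and the low galactinol synthases were named after their values were seen. Promoter and peak sequences and their motifs were not analysed here.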

Additional observations from a re-analysis of the deposited data

How the results depend on the processing

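GolS1, RS5 and ProDH1 kept their direction and their call in all 15 alternatives run for each (pseudocounts of 0.1 and 5, no filter, FPKM of at least 5, median-ratio scaling, the replicate block, length-weighted pieces, voom on derived fragments, no trend, and each library left out). Their log2 fold changes ranged from 0.67 to 1.37, from -0.63 to -0.45 and from -1.26 to -1.03, and their highest limma adjusted p-values were 0.0413, 0.0312 and 0.0282. With each library left out in turn, P5CS1 ranged from 0.15 to 0.93, GolS4 from -0.2 to 0.6 and P5CS2 from -0.1 to 0.01. In these fits GolS2, not past the threshold, went from 0.77 to 0.3 without induced library 1 and 0.28 without brc1-2 library 2. GolS3 went from -0.23 to -0.52, -0.08 and -0.1 without induced library 2, 1 and 3, and ProDH2 from -0.64 to -0.34 without brc1-2 library 3. P5CS1 passed the threshold at 0.93, without brc1-2 library 1. GolS4 changed sign without induced library 2 (-0.03), brc1-2 library 2 (-0.04) or brc1-2 library 3 (-0.2). P5CS2 changed sign without induced library 2 (0.01) or brc1-2 library 1 (0.001). The cause was not tested.

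In the same fits the number of genes past the threshold ranged from 1609 to 2827 in place of 3413, with 716 to 1354 higher and 893 to 1473 lower, and the wider list gave 5 to 13 calls in place of 17. Without induced library 1, 2 or 3 the number over all genes was 1609, 1738 or 2006, and without brc1-2 library 2 it was 2134. Each such fit rests on 5 libraries. The replicate block gave 2989 genes, 3 osmolyte calls and 15 wider calls, and left log2 fold changes as they were (GolS1 1.09, RS5 -0.57, ProDH1 -1.15). The deviations of libraries with the same number from their group means correlated at 0.0824, 0.0597 and 0.193, so the numbers were not taken as pairs. Median-ratio scaling moved the median of all genes from 0.037 to -0.002. A peak lay at 1 osmolyte gene with the locus not extended, at 2 with peaks at or above the median width, at 3 with 500 bp and at 4 with any overlap, beside 2.43%, 8.32%, 11.9% and 17.7% of tested genes. Over 16 other named genes, 200 of 235 comparisons kept their call and 35 lost it, with no change of sign. With FPKM of at least 5, GolS2, GolS3, GolS4 and ProDH2 were not tested. GolS2, GolS3 and ProDH2 rest on few fragments in some libraries (12, 13 and 23 at the lowest where listed).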
